A study of Mus musculus with 4 samples.

Results

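The stefin A cluster and cystatin B encode small inhibitors of cysteine proteases. Their genes were followed here in the imiquimod (IMQ)-treated dorsal skin of mice fed with or without 7-ketocholesterol (7KC), an oxidized form of cholesterol. The 5 members, *Stfa1*, *Stfa2*, *Stfa2l1*, *Stfa3* and *Cstb*, were taken by gene symbol from the 24346 symbols in the data. They were selected on the measured difference between the 7KC-IMQ and Cont-IMQ groups, so their levels and differences are given as a description, without a test. All mice were male C57BL/6 mice, 8 weeks old when the diet was started, and all received a NASH diet, rich in fat, cholesterol, sucrose and bile salt, for 3 weeks, after which 5% IMQ cream was applied for 1 day. The Cont-IMQ group received this diet alone, and the 7KC-IMQ group received it with 7KC added. There were 2 libraries in each group, and both groups share the NASH diet and IMQ, so the comparison concerns 7KC on top of these treatments. Vehicle-treated skin was not analysed here.

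Stefins are the cystatins of family 1, which lack a signal peptide and act inside the cell, where they block the active-site cleft of papain-like cathepsins reversibly. Humans carry a single stefin A gene, whereas the mouse carries a cluster of copies, and stefin A proteins are known from the upper epidermis, where they become part of the cornified envelope, and from cells of the neutrophil lineage. Cystatin B, also called stefin B, is made in most tissues. Loss of stefin A in humans causes a peeling skin disease, and loss of cystatin B a form of progressive epilepsy.

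Expression was given as FPKM, that is, fragments corrected for the length of the exons and the depth of the library. The files do not state depth, and it was worked out from low values, whose spacing reflects single reads. This gave 15150000 and 15130000 mapped reads for Cont-IMQ 1 and 2, and 16190000 and 14990000 for 7KC-IMQ 1 and 2. With them, 72.6% to 75.1% of low single-transcript genes fell within 0.1 of a whole number of reads, where even spacing would give 20%. The median ratio of a library to the geometric mean of all libraries was already 1.001 or 1.002 in each. The deposited values may thus have been scaled to each other, so these depths may be effective library sizes and not counts of mapped reads. Rescaling by that ratio could change little. The label of skin held, since the keratins *Krt14* and *Krt10* had at least 4132 and 4597 FPKM in every library. Of the libraries, 3 stood apart. Over 17 hair follicle markers, summed FPKM was 129.6 in Cont-IMQ 1 and 1667 in Cont-IMQ 2, against 489.4 in 7KC-IMQ 1 and 432.9 in 7KC-IMQ 2, so that the Cont-IMQ libraries were the lowest and the highest. 7KC-IMQ 2 had the highest FPKM of the 4 libraries in each of the 11 family 1 cystatin genes in the data, and the highest sum of FPKM over all symbols, 702218 against 630272 to 654666. Where the difference of a member or of a summed stefin A level leaned on 1 of these libraries, it is also given without it.

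Among the members, *Stfa3* had the highest FPKM, followed by *Stfa1*, *Cstb*, *Stfa2* and *Stfa2l1*, and this order was the same in all 4 libraries. All 5 members passed the filter of a mean of at least 0.1 FPKM over the 4 libraries, although *Stfa2l1* passed it only through the 7KC-IMQ libraries. Each of the 5 was higher in both libraries of the 7KC-IMQ group than in either Cont-IMQ library, an arrangement found in 23.9% of the 15896 genes tested. As the members were chosen from this same contrast, nothing is read from that count. Among the 4 members with a fold, all but *Stfa2l1*, the size of the difference ran from a 1.13-fold higher mean FPKM for *Cstb* to 2.56-fold for *Stfa1*. In skin measured in bulk, more cells that express a gene and more RNA per cell cannot be told apart.

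**Figure D1:**
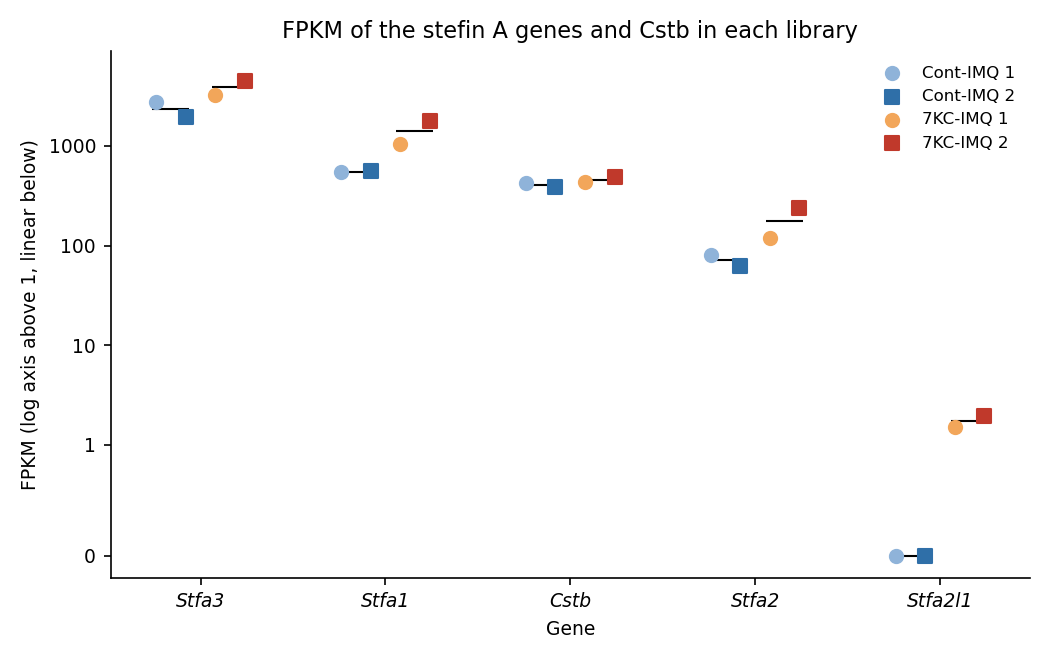
FPKM of the 5 members (vertical axis, logarithmic above 1 and linear below) in the 2 Cont-IMQ and 2 7KC-IMQ libraries, with each point a library and each line a group mean. *Stfa3* reaches 4510 FPKM, *Stfa2l1* is listed at 0 in both Cont-IMQ libraries, and the groups lie closest together in *Cstb*.

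*Stfa1* encodes a stefin A that inhibits papain-like cathepsins. Its FPKM was 541 and 556 in Cont-IMQ 1 and 2, and 1037 and 1766 in 7KC-IMQ 1 and 2. The Cont-IMQ libraries were nearly level, whereas the 7KC-IMQ libraries differed from each other by 1.7-fold, and the groups did not overlap. The mean was 548 ± 10.5 FPKM in Cont-IMQ and 1402 ± 515 FPKM in 7KC-IMQ skin (SD, n = 2 in each), a difference of 1.30 in log2(FPKM + 1) with a pooled within-group SD of 0.38. With 7KC-IMQ 2 left out, the difference was 0.92, and without Cont-IMQ 1 and 2 it was 1.28 and 1.32. These values rest on an estimated 3413 and 3502 reads in the Cont-IMQ libraries and 6996 and 11029 reads in the 7KC-IMQ libraries.

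*Stfa2* is a neighboring copy with a lower level. It had 80.6 and 61.7 FPKM in Cont-IMQ 1 and 2, and 119 and 237 FPKM in 7KC-IMQ 1 and 2. Its groups were separated as well, but 7KC-IMQ 2 stood at 2.0 times 7KC-IMQ 1, and that library decided much of the size. The mean was 71.1 ± 13.4 FPKM in Cont-IMQ skin and 178 ± 83.8 FPKM in 7KC-IMQ skin (SD, n = 2 in each), 2.50-fold higher. The log2 difference of 1.24 (pooled SD 0.53) became 0.74 without 7KC-IMQ 2 and 1.74 without 7KC-IMQ 1, and 1.43 and 1.05 without Cont-IMQ 1 and 2.

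*Stfa2l1*, a copy close in sequence to *Stfa2*, was near the limit of detection. It was listed at 0 in both Cont-IMQ libraries, and at 1.51 and 1.97 FPKM in 7KC-IMQ 1 and 2. The latter values correspond to an estimated 5 and 6 reads, and 3 reads would correspond to 0.903 and 0.904 FPKM in the Cont-IMQ libraries. Exact Poisson intervals (95%), which cover counting error only, ran from 0.457 to 3.29 FPKM and from 0.67 to 3.97 FPKM in 7KC-IMQ 1 and 2, and up to 1.11 FPKM in each Cont-IMQ library. A value of 0 can be a failed estimate in these files, so no fold is given. *Stfa2* had an estimated 521 and 963 reads in the same 7KC-IMQ libraries, and a transfer of a few reads between the copies was not tested.

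*Stfa3* had the highest level of the members and ranked 16 among all symbols by mean FPKM, in the range of the most abundant epidermal transcripts. It had 2777 and 1956 FPKM in Cont-IMQ 1 and 2, and 3219 and 4510 FPKM in 7KC-IMQ 1 and 2. The gap between Cont-IMQ 1 and 7KC-IMQ 1 was smaller than the gap between the Cont-IMQ libraries. The mean was 2367 ± 580.5 FPKM in Cont-IMQ skin and 3865 ± 913 FPKM in 7KC-IMQ skin (SD, n = 2 in each), 1.63-fold higher. On the log2 scale the difference was 0.71 (pooled SD 0.35). It was 0.46 without Cont-IMQ 2, 0.96 without Cont-IMQ 1, 0.47 without 7KC-IMQ 2 and 0.95 without 7KC-IMQ 1. The size thus depended on every library.

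*Cstb* encodes cystatin B and lies on another chromosome than the stefin A genes. It had 423 and 384 FPKM in Cont-IMQ 1 and 2, and 429 and 484 FPKM in 7KC-IMQ 1 and 2. The 95% Poisson intervals of Cont-IMQ 1 and 7KC-IMQ 1, which cover counting error only, overlapped, at 407 to 440.0 FPKM and 414 to 446 FPKM. The mean was 404 ± 27.8 FPKM in Cont-IMQ skin and 457 ± 38.8 FPKM in 7KC-IMQ skin (SD, n = 2 in each). The log2 difference of 0.18 (pooled SD 0.11) was smaller than that of *Stfa1*, *Stfa2* and *Stfa3*. It was 0.09 without 7KC-IMQ 2, 0.25 and 0.11 without Cont-IMQ 1 and 2, 0.10 after rescaling the libraries to the same sum, and 0.08 after quantile normalization.

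In the order of levels, the neighbors *Stfa1* and *Cstb* lay close only in the Cont-IMQ group. The ratio of their FPKM was 1.28 and 1.45 in Cont-IMQ 1 and 2, and 2.42 and 3.65 in 7KC-IMQ 1 and 2. *Stfa3* exceeded *Stfa1* by 5.14-fold and 3.52-fold in Cont-IMQ 1 and 2, and by 3.10-fold and 2.55-fold in 7KC-IMQ 1 and 2. The ratio of *Stfa1* to *Stfa2*, in contrast, overlapped between the groups, at 6.71 and 9.01 in Cont-IMQ libraries and 8.73 and 7.44 in 7KC-IMQ ones.

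The FPKM of *Stfa1*, *Stfa2*, *Stfa2l1* and *Stfa3* was also summed in each library. The sum was 3399 and 2574 FPKM in Cont-IMQ 1 and 2, and 4377 and 6516 FPKM in 7KC-IMQ 1 and 2. It was lowest in Cont-IMQ 2, the library with the high hair follicle markers, and highest in 7KC-IMQ 2. The mean was 2986 ± 583 FPKM in Cont-IMQ skin and 5446 ± 1513 FPKM in 7KC-IMQ skin (SD, n = 2 in each), 1.82-fold higher. The log2 difference was 0.85 (pooled SD 0.35), with 0.57 when 7KC-IMQ 2 was left out, and 1.05 and 0.65 when Cont-IMQ 1 and 2 were left out. As a share of all FPKM in the library, the sum was 0.522% and 0.408% in the Cont-IMQ libraries and 0.669% and 0.928% in the 7KC-IMQ libraries.

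The make-up of the sum also differed between the libraries. *Stfa3* held 81.7% and 76.0% of it in Cont-IMQ 1 and 2, and 73.6% and 69.2% in 7KC-IMQ 1 and 2. *Stfa1* held 15.9% and 21.6% in the Cont-IMQ libraries, and 23.7% and 27.1% in the 7KC-IMQ libraries. The shares of both genes were separated between the groups, with the Cont-IMQ libraries further apart from each other than Cont-IMQ 2 was from 7KC-IMQ 1. *Stfa2* held between 2.37% and 3.64%, and *Stfa2l1* at most 0.0346%. FPKM of transcripts as short as these depends on the fragment length assumed when the values were made, so shares between genes are less certain than the comparison of 1 gene between libraries.

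**Figure D2:**
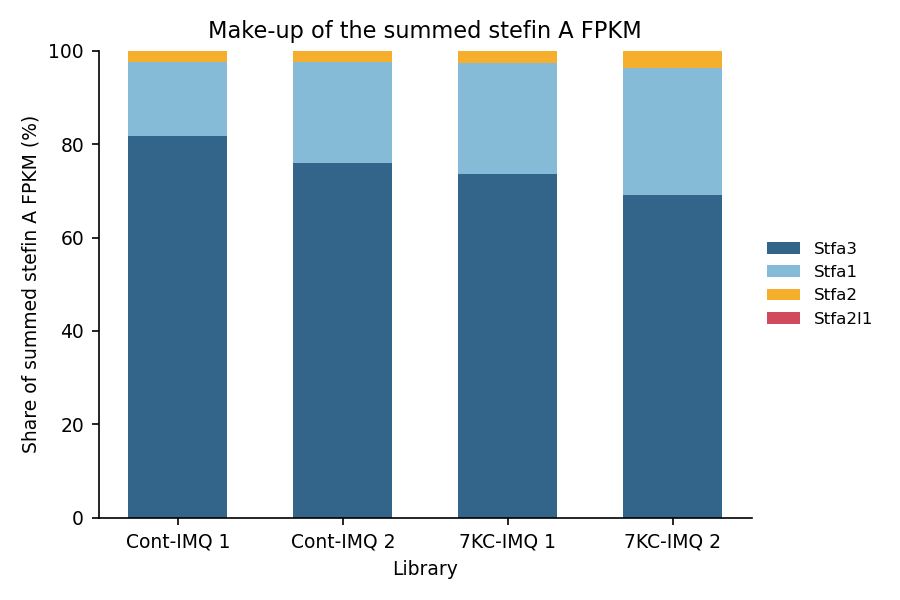
Share (%) of the summed stefin A FPKM held by each of the 4 stefin A members in each library, as stacked bars. *Stfa3* holds 81.7% in Cont-IMQ 1 and 69.2% in 7KC-IMQ 2, and *Stfa2l1*, at most 0.0346%, is too small to be seen.

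The 4 stefin A members lie in a single cluster on chromosome 16 of GRCm38, the assembly also called mm10. In GENCODE release M21, the cluster runs over 335 kb, from 36119946 to 36455392, and holds 10 genes that are in the data. The genes for *Stfa2l1* (ENSMUSG00000059657.5, 36156811 to 36161953) and *Stfa1* (ENSMUSG00000071562.6, 36276951 to 36285373) are on the plus strand. Those for *Stfa2* (ENSMUSG00000022902.8, 36403992 to 36408457) and *Stfa3* (ENSMUSG00000054905.2, 36450537 to 36455392) are on the minus strand. *Cstb* (ENSMUSG00000005054.7) lies on the plus strand of chromosome 10, from 78425669 to 78427622. The main transcript of each of the 5 members has 3 exons, and a coding length of between 294 and 312 bases.

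**Figure D3:**
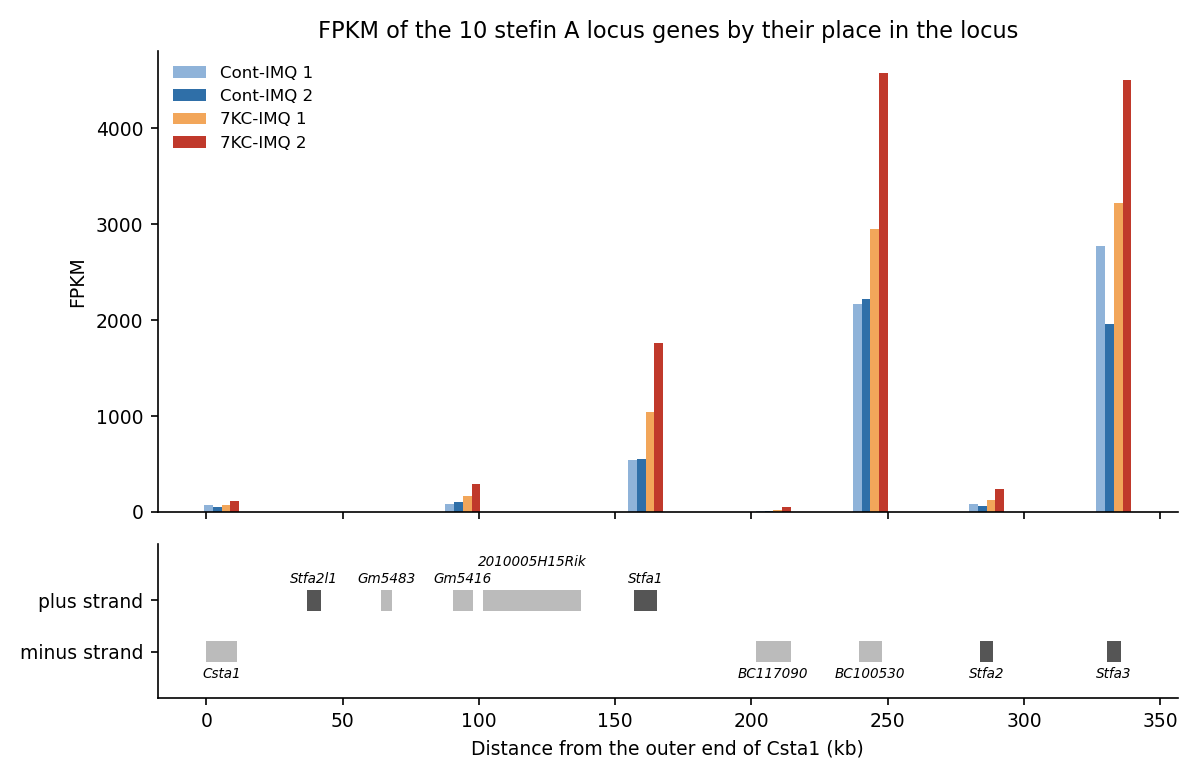
FPKM of the 10 genes of the stefin A locus in the 4 libraries (bars, upper panel) and the place and strand of each gene (lower panel, members in dark gray), by distance in kb from the outer end of *Csta1*. *BC100530* and *Stfa3*, on the minus strand, hold the 2 highest levels, and 7KC-IMQ 2 is the highest library throughout.

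The coding sequences of the members ranged from near-identical to distant. *Stfa2* and *Stfa2l1* shared 96.5% of their bases in a global alignment. *Stfa1* shared 76.0% with *Stfa2* and 80.2% with *Stfa3*, while *Stfa2* and *Stfa3* shared 81.1%. *Cstb* shared between 56.1% and 59.5% with the stefin A members. Closest to *Stfa1* was *BC100530*, a locus gene outside the members, at 98.0%.

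Shared sequence bears on how firmly a value belongs to a gene, because 75-base reads from identical stretches cannot be assigned. Of the 75-base windows of *Stfa1*, 9.15% also occur in another annotated gene, *BC100530*. The share was 5.79% for *Stfa2*, all of it in *Stfa2l1*, and 7.83% for *Stfa2l1*. Of the other genes of the locus, *BC100530* shared 25.6% and *BC117090* 20.4% of their windows, so their levels and the sum over the locus are less certain. *Stfa3* and *Cstb* had no shared window, so their values are the least open to an exchange of reads by identical windows. Windows with a few mismatches were not counted, and how reads with several positions were treated is not given in the sources used here.

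The stretch upstream of the start is shown for the 4 stefin A members because they lie in 1 cluster and were all higher in the 7KC-IMQ libraries. Each sequence covers the 150 bases before the RefSeq start in GRCm38.p6, 5′ to 3′ on the strand of the gene, and capitals mark 2 runs of 13 bases that all 4 promoters hold. The positions are chr16:36276998-36277147 (plus strand) for *Stfa1*, chr16:36408364-36408513 (minus strand) for *Stfa2*, chr16:36156661-36156810 (plus strand) for *Stfa2l1* and chr16:36455393-36455542 (minus strand) for *Stfa3*. For *Stfa1* and *Stfa2*, GENCODE M21 places the start elsewhere. *Stfa1* begins at 36276951 there, so its whole stretch lies inside the annotated gene. *Stfa2* begins at 36408457, so its stretch lies partly inside the gene. For *Stfa2l1* and *Stfa3*, the stretch ends next to the GENCODE start. Which start is used in this skin was not tested.
Stfa1: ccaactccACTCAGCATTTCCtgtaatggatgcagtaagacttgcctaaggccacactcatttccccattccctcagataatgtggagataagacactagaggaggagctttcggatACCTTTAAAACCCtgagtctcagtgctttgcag
Stfa2: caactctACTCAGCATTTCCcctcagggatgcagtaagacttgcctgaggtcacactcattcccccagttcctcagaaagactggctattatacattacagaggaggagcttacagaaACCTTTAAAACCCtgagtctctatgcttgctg
Stfa2l1: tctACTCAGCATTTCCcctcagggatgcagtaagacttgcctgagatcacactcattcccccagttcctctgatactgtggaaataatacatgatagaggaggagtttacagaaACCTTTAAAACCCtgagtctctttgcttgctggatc
Stfa3: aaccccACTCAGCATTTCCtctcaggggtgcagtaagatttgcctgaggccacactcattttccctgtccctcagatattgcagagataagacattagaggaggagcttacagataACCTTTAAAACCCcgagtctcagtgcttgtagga

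The capital run nearer the start, ACCTTTAAAACCC, begins 33 bases upstream of the RefSeq start in *Stfa1*, 32 in *Stfa2*, 36 in *Stfa2l1* and 34 in *Stfa3*. The other, ACTCAGCATTTCC, begins between 142 and 147 bases upstream. A longer run, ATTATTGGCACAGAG, begins between 242 and 247 bases upstream, beyond the stretch shown. Searched on both strands in the 32851 RefSeq promoters (250 bases before to 50 after the start), these runs occurred in 9, 10 and 5 promoters, or 0.0274%, 0.0304% and 0.0152%. The runs were found by comparing the members, so their presence in all 4 is given by the choice. Of the 9 locus genes with a promoter among those searched, 5 held all 3 runs, namely the 4 members and *BC100530*. The longer run was in these 5 alone, whereas each of the capital runs was in 7 of the 9. *Gm5416* held both capital runs, *Csta1* only the one further from the start, and *Gm5483* only the nearer one. *2010005H15Rik* held none of the runs. A link between the runs and expression was not tested. Across the whole promoters, *Stfa2* and *Stfa2l1* shared 90.5% of their bases and the other pairs between 79.2% and 81.0%.

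Of 5 motifs searched on both strands, 3 were in none of the 4 promoters. These were TATAAA, the core of a TATA box (in 13.6% of all promoters), TTCNNNGAA, a STAT motif (8.30%), and the NF-kB motif (8.46%). The AP-1 motif TGANTCA was in *Stfa3* alone, 30 bases after the RefSeq start (7.81% of all promoters). The C/EBP motif TTGCNNAA was in *Stfa1* alone, 109 bases upstream of the RefSeq start (10.8%). Such a match is a match of letters, and binding was not measured.

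The 6 other family 1 genes of the data, all in the same locus, were compared as neighbors of the members. *BC100530*, named *Cstdc5* in RefSeq, had 2164 and 2225 FPKM in Cont-IMQ 1 and 2, and 2953 and 4582 FPKM in 7KC-IMQ 1 and 2. It ranked 19 by mean FPKM, and its order relative to *Stfa3* switched between libraries of the same group, so these 2 levels did not differ beyond their spread. *Gm5416*, named *Csta3* in RefSeq, had 82.7 and 101 FPKM in Cont-IMQ and 161 and 286 FPKM in 7KC-IMQ libraries, near the level of *Stfa2*. *BC117090*, named *Cstdc6*, had 14.2 and 11.7 FPKM against 16.8 and 46.3 FPKM, with 7KC-IMQ 2 standing at 2.76 times 7KC-IMQ 1.

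*Csta1* was the only family 1 gene whose groups overlapped. It had 75.7 and 46.9 FPKM in Cont-IMQ 1 and 2, and 73.6 and 112 FPKM in 7KC-IMQ 1 and 2. The remaining 2 genes were low. *2010005H15Rik*, named *Csta2* in RefSeq, had 0.412 and 0.208 FPKM in the Cont-IMQ libraries, an estimated 3 reads and 1 read, and 1.93 and 2.93 FPKM in 7KC-IMQ libraries, an estimated 14 and 19 reads. *Gm5483*, named *Cstdc4*, had at most 0.990 FPKM, an estimated 3 reads, and was listed at 0 in Cont-IMQ 2. No fold is given for either.

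Of these 6 neighbors, 5 were higher in both 7KC-IMQ libraries without overlap and 0 were lower, where the background over all genes tested was 23.9% higher and 22.9% lower. In limma, 0 of the 6 passed an adjusted p of 0.05, with adjusted p-values from 0.331 to 0.486. At an unadjusted p of 0.05, 4 were higher and 0 lower, where 7.50% and 5.47% of all genes tested were. Of the 4, *2010005H15Rik* and *Gm5483* had at most 3 estimated reads in the Cont-IMQ libraries, so nothing is read from the count. Over all genes, 1 passed the adjusted threshold (0.00629%), the microRNA gene *Mir24-2*, which is outside the family and is named after its values were seen. The unadjusted background depended on scaling, as 57.8% of the calls were higher with FPKM as deposited and 34.2% once every library was rescaled to an equal sum. For genes without overlap, the share that were higher was 51.1% and 31.8%, respectively. The neighbors share sequence and a locus with the members and are therefore not independent of them. Their p-values, like all others here, measure the spread between libraries, and nothing in the labels says whether each library is a separate animal.

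Summed over the 10 genes of the locus, FPKM was 5736 and 4959 in Cont-IMQ 1 and 2, and 7584 and 11550 in 7KC-IMQ 1 and 2. As the genes differ in effective length, an exchange of reads between copies can still change this sum of FPKM. The log2 difference was 0.81 (pooled SD 0.32), with 0.51 when 7KC-IMQ 2 was left out, and 0.92 and 0.71 when Cont-IMQ 1 and 2 were left out. The locus held 0.881% and 0.787% of all FPKM in the Cont-IMQ libraries, and 1.16% and 1.64% in the 7KC-IMQ libraries.

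**Figure D4:**
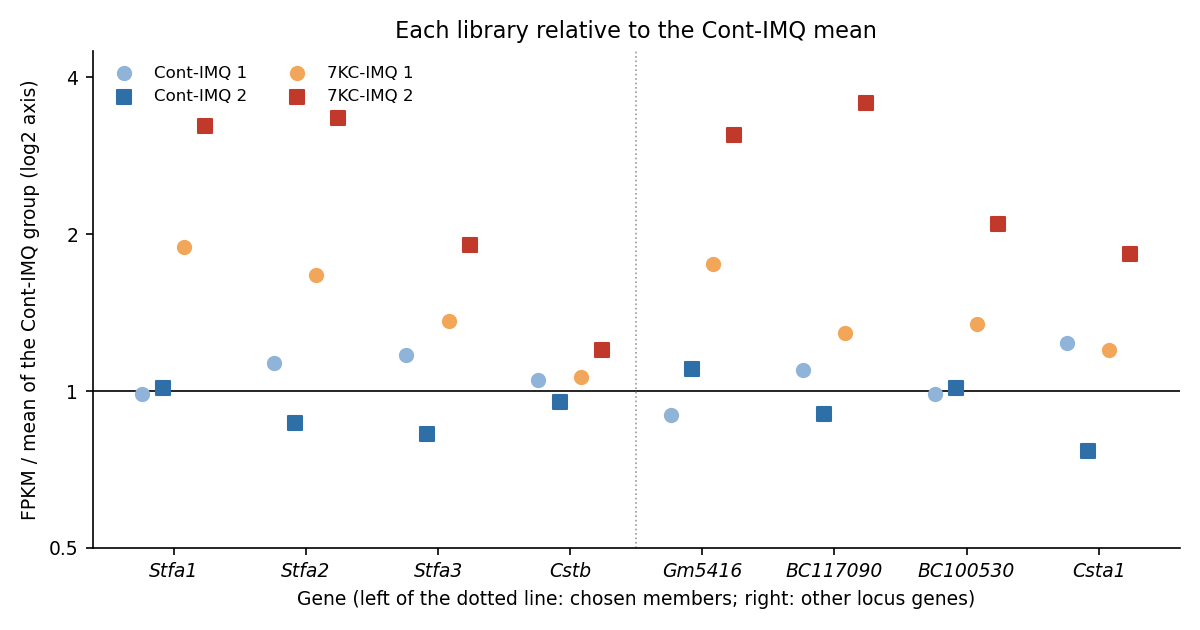
FPKM of each library divided by the mean of the Cont-IMQ group (log2 axis) for the 8 family 1 genes with over 3 estimated reads in both Cont-IMQ libraries, members to the left of the dotted line. 7KC-IMQ 2 is highest for each gene, from 1.20 in *Cstb* to 3.57 in *BC117090*, and only in *Csta1* does 7KC-IMQ 1 lie below a Cont-IMQ library.

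The cysteine cathepsins, the proteases that stefins inhibit, were compared with the same model. All 10 listed cathepsin genes were tested, and their median log2 difference was -0.04, beside -0.01 over all genes tested. After rescaling to the same sum, the median was -0.07 over all genes tested and -0.12 for the cathepsins. None passed the adjusted threshold in limma. At an unadjusted p of 0.05, 0 were higher and 2 were lower, beside 7.50% and 5.47% of all genes tested. These were *Ctss* and *Ctsf*, the latter named after its values were seen. *Ctsk*, the bone and fibroblast collagenase and the most abundant of the list, had 537 and 408 FPKM in Cont-IMQ and 494 and 464 FPKM in 7KC-IMQ libraries. *Ctsl*, an abundant cathepsin of keratinocytes, had 366 and 342 FPKM against 381 and 384.5 FPKM, and *Ctsb*, a lysosomal cathepsin of most cells, had 166 and 203 FPKM against 176 and 186 FPKM. *Ctss*, the cathepsin of antigen-presenting cells, had 162 and 168 FPKM against 141 and 140.5 FPKM, with a log2 difference of -0.22 (standard error 0.0701, adjusted p = 0.365 in limma). The summed FPKM of the 10 cathepsins ranged from 1441 to 1528 over the 4 libraries, while the summed stefin A ranged from 2574 to 6516.

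Secreted cystatins of family 2 and the family 3 cystatins were examined as relatives of the stefins. In family 2, 3 of 10 genes passed the filter, and 6 of the others were listed at 0 in every library. *Cst3*, which encodes cystatin C, had 865 and 703.5 FPKM in Cont-IMQ and 746 and 686 FPKM in 7KC-IMQ libraries. *Cst6*, which encodes cystatin M/E of the epidermis, had 387 and 354.5 FPKM against 407 and 406 FPKM, and *Cst7* at most 2.27 FPKM. *Cstl1* was listed at 0 except in 7KC-IMQ 1, at 0.153 FPKM. The median of family 2 was 0.13, and ran from 0.061 to 0.20 with each library left out. That of the 3 tested family 3 genes was 0.03, with -0.15 to 0.33, and neither list had a gene past an adjusted or unadjusted p of 0.05 in limma. In family 3, *Fetub*, which encodes fetuin-B, stood out for 1 library, with 4.26 and 3.19 FPKM in Cont-IMQ and 6.69 and 32.1 FPKM in 7KC-IMQ 1 and 2. *Ahsg*, *Kng2* and *Kng1* stayed below 1 FPKM in all libraries.

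Among 7 other inhibitors of cysteine proteases, all tested, the median log2 difference was 0.00. It ran from -0.056 to 0.23 with each library left out, and was 0.17 with a pseudocount of 0.1 and -0.20 among genes averaging at least 1 FPKM. At an unadjusted p of 0.05, 2 genes were higher and 0 lower, beside 7.50% and 5.47% of all genes tested, and 0 passed after adjustment in limma. The pair that were higher were squamous serpins. *Serpinb3a* had 42.0 and 20.7 FPKM in Cont-IMQ 1 and 2, and 62.9 and 94.1 FPKM in 7KC-IMQ 1 and 2 (log2 difference 1.35, standard error 0.383, adjusted p = 0.356 in limma). The difference was 1.85 and 0.86 without Cont-IMQ 1 and 2, and 1.07 without 7KC-IMQ 2. *Serpinb3b* had 64.0 and 42.2 FPKM against 77.6 and 112 FPKM, an order of libraries equal to that of the summed stefin A. *Ctla2a*, which encodes a propeptide-like inhibitor, went from 83.4 and 152 FPKM to 97.0 and 48.3 FPKM, with overlap, and *Ctla2b* had at most 10.5 FPKM.

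Stefin A is a component of the cornified envelope, and the other envelope proteins and their cross-linking enzymes were compared as a list. Of 18 tested genes, 4 were higher and 6 lower without overlap, beside 23.9% and 22.9% of all genes tested, and the median log2 difference was 0.03. At an unadjusted p of 0.05 in limma, 2 were higher (*Cnfn* and *Tgm1*) and 2 lower (*Ivl* and *Flg2*), beside 7.50% and 5.47% of all genes tested, and 0 passed after adjustment. *Tgm1*, *Ivl* and *Flg2* are named after their values were seen. *Cnfn*, which encodes cornifelin, had 1068 and 900 FPKM in Cont-IMQ and 1313 and 1650 FPKM in 7KC-IMQ libraries. *Lor*, which encodes loricrin, had 1808 and 1187 FPKM against 1343 and 1436 FPKM. *Sprr1a* had 754 and 900 FPKM against 951 and 1104 FPKM, and *Anxa1* 655 and 680 FPKM against 553 and 620 FPKM.

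Markers of the cells that can express stefin A were measured beside the members. All 8 keratinocyte markers were tested, with a median log2 difference of -0.02, and 1 was higher (*Dsg3*, named after its values were seen) and 0 lower at an unadjusted p of 0.05, beside 7.50% and 5.47% of all genes tested. Their summed FPKM was 29210 and 20760 in Cont-IMQ 1 and 2, and 23330 and 25740 in 7KC-IMQ 1 and 2, with *Krtdap* the most abundant by its mean. Within each group, the library with the higher keratinocyte sum also had the higher summed stefin A. Across the groups, Cont-IMQ 1 had the highest keratinocyte sum, but its summed stefin A of 3399 FPKM was below that of both 7KC-IMQ libraries. Of the other abundant markers, *Krt14* had 4409 and 4132 FPKM against 4807 and 5700 FPKM, without overlap, and *Krt10* had 8444 and 4597 FPKM against 5283 and 5553 FPKM. *Krt1* overlapped as well, at 5867 and 3191 FPKM against 4057 and 4845 FPKM. The part of keratinocyte content in the stefin A difference was not tested.

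Of the neutrophil markers, 16 of 17 were in the data and 14 were tested. Their summed FPKM was 179 and 228 in the Cont-IMQ libraries and 191 and 175 in the 7KC-IMQ libraries, and the most abundant was *Il1r2*. Of the granule genes, *Ltf* was listed at 0 in 3 of the 4 libraries, *Mpo* had at most 0.0562 FPKM and *Ngp* at most 0.139 FPKM. *Camp* had 0.336 and 0 FPKM against 0.628 and 0.682 FPKM, and *Mmp8* 0.346 and 0.816 FPKM against 1.08 and 1.49 FPKM. In the other direction, *Mmp9* had 1.94 and 3.97 FPKM against 1.86 and 1.55 FPKM, without overlap, and *Elane* 0.183 and 0.741 FPKM against 0 and 0.279 FPKM, with overlap. These granule genes are named after their values were seen.

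Without overlap, 7 neutrophil markers were higher and 3 lower, beside 23.9% and 22.9% of all genes tested. The 7 include *Camp*, listed at 0 in Cont-IMQ 2, and *Trem1*, named after its values were seen, which passed the filter on low values only through the 7KC-IMQ libraries, so nothing is read from these counts. The median log2 difference was 0.11, with 0.0089 among markers averaging at least 1 FPKM and 0.38 with a pseudocount of 0.1, so it depended on how low values were treated. At an unadjusted p of 0.05 in limma, 4 were higher (*Cxcr2*, *Mmp8*, *Camp* and *Cxcr1*, the last named after its values were seen) and 0 lower, beside 7.50% and 5.47% of all genes tested, and 0 passed after adjustment. *Cxcr2*, the receptor for neutrophil-attracting chemokines, had 13.4 and 15.05 FPKM in Cont-IMQ and 20.2 and 23.0 FPKM in 7KC-IMQ libraries. *Il1r2* had 102 and 127 FPKM against 100.1 and 76.6 FPKM, *Itgam* had 31.1 and 38.6 FPKM against 32.4 and 37.5 FPKM, and *Fpr1* had 14.8 and 22.5 FPKM against 14.4 and 13.8 FPKM. The part of neutrophils in the stefin A difference was not tested.

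All 11 macrophage and monocyte markers were tested, with a median log2 difference of -0.15. In limma, 0 were higher and 1 lower at an unadjusted p of 0.05 (*Lyz2*, with 210 and 233 FPKM against 191 and 175 FPKM), beside 7.50% and 5.47% of all genes tested, and 0 passed after adjustment. Their summed FPKM was 963 and 1172 in the Cont-IMQ libraries and 916 and 971 in the 7KC-IMQ libraries, and *C1qb* was the most abundant, with 214 and 272.5 FPKM against 210 and 232 FPKM. *C1qa* had 201 and 276 FPKM against 199 and 214 FPKM, and *C1qc* 183 and 219 FPKM against 176 and 200 FPKM.

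The 17 hair follicle markers had 0 genes past an unadjusted p of 0.05, and the median log2 difference was -0.15, with -1.80 without Cont-IMQ 1 and 1.34 without Cont-IMQ 2. The most abundant follicle marker, *Krt71*, had 34.5 and 503 FPKM in Cont-IMQ 1 and 2, and 135.5 and 112 FPKM in 7KC-IMQ 1 and 2. *Krt25* had 31.6 and 442 FPKM against 134 and 122 FPKM, *Krt27* 15.5 and 254 FPKM against 58.6 and 55.3 FPKM, and *Tchh* 8.77 and 135.5 FPKM against 31.6 and 29.3 FPKM. Beside these, the summed stefin A was 3399 and 2574 FPKM in Cont-IMQ 1 and 2, and 4377 and 6516 FPKM in 7KC-IMQ 1 and 2. The part of follicle content in the stefin A difference was not tested.

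**Figure D5:**
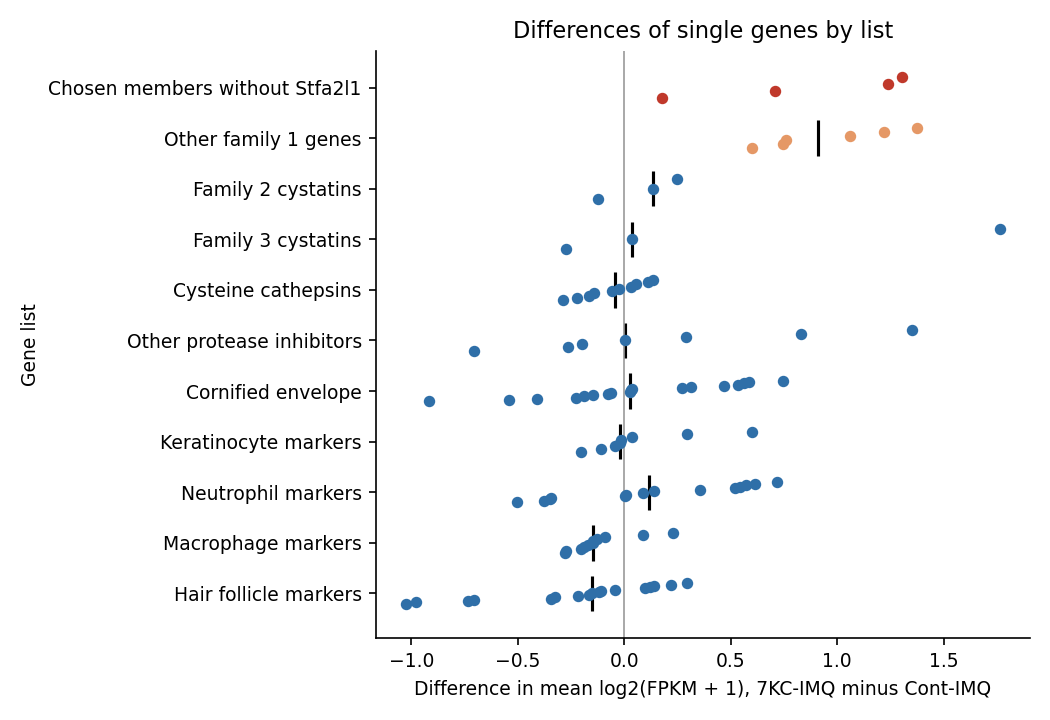
Difference in mean log2(FPKM + 1), 7KC-IMQ minus Cont-IMQ, with each point a gene that was tested, by list, and a black bar at the median of each list other than the chosen members (*Stfa2l1* left out). The other family 1 genes lie at or above 0.60 and the cathepsins between -0.29 and 0.13.

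The genes whose profile over the 4 libraries was most like the summed stefin A were searched among 13101 genes with a mean of at least 1 FPKM. All family 1 cystatin genes, members and neighbors alike, were left out of this search. Likeness was the root-mean-square distance between profiles of log2(FPKM + 1), each centered on its own mean. The 10 nearest, in order, were *Pla2g4d*, *Lce3c*, *Il33*, *Lce3f*, *Il1a*, *Serpinb3b*, *Ier5l*, *Slc16a3*, *Klk9* and *Cdhr1*. Their distances ran from 0.0236 to 0.0922. *Stfa3*, which is part of the sum, lay nearer than *Cdhr1* and is not listed. *Lce3c* and *Lce3f* encode late cornified envelope proteins, *Il33* and *Il1a* cytokines stored in keratinocytes, *Klk9* a kallikrein, and *Slc16a3* a lactate transporter. *Lce3c* had 79.5 and 56.8 FPKM in Cont-IMQ 1 and 2, and 96.4 and 152 FPKM in 7KC-IMQ 1 and 2. *Il33* had 40.1 and 32.3 FPKM against 52.3 and 81.8 FPKM, and *Il1a* had 50.6 and 33.9 FPKM against 62.7 and 94.1 FPKM. Each of these has its lowest value in Cont-IMQ 2 and its highest in 7KC-IMQ 2, as the summed stefin A does. Such a match is given by the search, which picked genes by their likeness to that profile. *Pla2g4d*, a phospholipase of the epidermis, had 1.07 and 0.616 FPKM against 1.75 and 3.16 FPKM.

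The profile of *Cstb* was flatter, and 2581 genes (19.7%) lay within a distance of 0.1 of it, against 13 genes (0.0992%) for the summed stefin A. Its 10 nearest genes were *E2f1*, *Ckm*, *Mars2*, *Suclg1*, *Alg3*, *Afg3l2*, *Elp6*, *Slc16a6*, *Ksr1* and *2810428I15Rik*, at distances of 0.00754 to 0.0155. None of these was among the 10 nearest to the summed stefin A. The closest, *E2f1*, a transcription factor of the cell cycle, had 6.18 and 5.43 FPKM in Cont-IMQ and 6.23 and 7.10 FPKM in 7KC-IMQ libraries. *Ckm*, the creatine kinase of muscle, had 800 and 723 FPKM against 825 and 915 FPKM. With so many genes near *Cstb*, its list of nearest genes has little resolution.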

How the data were processed

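Dorsal skin RNA was measured in 2 Cont-IMQ and 2 7KC-IMQ libraries made with a stranded mRNA kit and read in 75-base single-end mode. The deposited files give FPKM per gene symbol, made by the authors from reads mapped to mm10. The submitters' processing notes name TopHat2 2.1.1, Bowtie2 2.2.8, SAMtools 0.1.18 and Cuffdiff 2.2.1, whereas the methods of the study name other versions of the mapping tools and Cufflinks. Labels give 1 day of IMQ to both groups, while the design text speaks of daily application for the 7KC-IMQ group. No read counts were used, so no count model was applied.

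Values were taken as deposited and transformed to log2(FPKM + 1), a scale that understates the change of low genes. Genes averaging at least 0.1 FPKM were compared by limma 3.58.1 (R 4.3.3) with a variance trend and Benjamini-Hochberg adjustment over all genes tested, at 0.05. The model was tested on simulated data. Groups came from the sample labels. Depth was estimated from genes with a single transcript, assuming fragments of 200 ± 80 bases, and 3 estimated reads were taken as a floor. Coordinates and coding sequences came from GENCODE M21, promoters from RefSeq (GRCm38.p6), aligned with Biopython 1.88. A comparison of proteins was planned and not run, and coding sequences were compared instead.

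Genes were named by rule: every family 1 cystatin gene and the 4 genes of highest mean FPKM in each list. The rule also named any listed gene past the adjusted threshold and the 10 nearest profiles outside the family 1 cystatin genes. Others are said to be named after their values were seen, and 1 gene that the rule names is not reported here. The members and lists were chosen with earlier results of these data known. The alternatives tried were another pseudocount, other filters and scalings, a fit without the trend, a replicate block, the sum over the whole locus, and leaving out each library.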

Additional observations from a re-analysis of the deposited data

How the results depend on the processing

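The members were chosen on this contrast, so the direction of their differences under other settings is no support. *Stfa2l1* was left out because both Cont-IMQ libraries are listed at 0. Leaving out 1 library at a time, the log2 difference ran from 0.92 to 1.69 for *Stfa1*, 0.74 to 1.74 for *Stfa2*, 0.46 to 0.96 for *Stfa3*, 0.09 to 0.26 for *Cstb*, and 0.57 to 1.14 for the sum. With 2 libraries in a group, such a shift cannot exceed the within-group SD, by arithmetic, so these ranges show size only. Added after the data were seen, the same step gave 0.51 to 1.11 for the locus sum, 0.86 to 1.85 for *Serpinb3a* and -0.25 to -0.20 for *Ctss*. A group of 1 library is then assumed to vary like the other.

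Over all genes, with a pseudocount of 0.1, 2 genes passed the adjusted threshold in place of 1. After rescaling to the same sum, 638 genes were higher at an unadjusted p of 0.05 in place of 1192, and 2385 were higher without overlap in place of 3801. Leaving out each library in turn gave 1 to 9 genes past the adjusted threshold, 615 to 2331 past the unadjusted one (2061 with all libraries), of which 333 to 1190 were higher, and 5300 to 6171 higher without overlap. The lowest unadjusted counts were without 7KC-IMQ 2 (615) and without 7KC-IMQ 1 (1137). With the replicate block, 1 gene passed the adjusted threshold and 1754 the unadjusted one, 978 of them higher. Samples with the same number hardly deviated together, with a correlation of 0.0651 across 15896 genes, which are not independent replicates, and the numbers are not taken as pairs.

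The median log2 difference of a list moved by at least its within-group SD in 27 of 140 recomputed values, the fit without the trend and the replicate block left out because they cannot change it, and the cause was not tested. With a pseudocount of 0.1, it was 0.23 for family 3 cystatins, 0.38 for neutrophil, -0.34 for mast cell and -0.32 for T cell markers. With a mean of at least 1 FPKM, it was 1.76 for family 3 cystatins, where a single gene is left, -0.36 for T cell and -0.70 for red blood cell markers, and without a filter it was -0.069 for T cell markers. For cathepsins it was -0.12 after rescaling to the same sum and -0.11 after quantile normalization, which gave 0.017 for family 2 cystatins. Leaving out each library gave 0.061 to 0.20 for family 2 cystatins, -0.15 to 0.33 for family 3 cystatins, -0.12 to -0.030 for cathepsins, -0.056 to 0.23 for other inhibitors, -0.11 to 0.20 for the cornified envelope, -0.16 to 0.18 for keratinocyte, 0.071 to 0.19 for neutrophil, -0.22 to -0.012 for macrophage, -0.41 to -0.16 for mast cell, -0.35 to -0.11 for T cell, -1.80 to 1.34 for hair follicle, -0.12 to 0.14 for muscle and -0.076 to 0.52 for adipocyte markers. Depth limits *Stfa2l1*, *Gm5483* and *2010005H15Rik*, which had at most 19 estimated reads in a library.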

Other observations

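Of the mast cell, T cell, skeletal muscle, adipocyte and red blood cell markers tested, 0 passed an adjusted p of 0.05 in limma. Counts below are at an unadjusted p of 0.05, where 7.50% of all genes tested were higher and 5.47% lower. No other cell types were examined here.

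Mast cell markers (6 of 6 tested) had a median log2 difference of -0.26, with 0 higher and 2 lower. Their summed FPKM was 106 and 105 in the Cont-IMQ libraries against 87.1 and 91.6 in the 7KC-IMQ libraries. *Mcpt4* had 44.1 and 35.1 FPKM against 36.8 and 36.6 FPKM, *Cma1* 26.3 and 28.5 against 20.2 and 22.4, *Tpsb2* 19.4 and 20.8 against 14.5 and 16.1, and *Cpa3* 14.2 and 15.9 against 13.3 and 14.1. T cell markers (4 tested) had a median of -0.21, with 0 higher and 2 lower, and sums of 16.1 and 14.5 against 12.3 and 9.85 FPKM. *Cd3g* had 10.1 and 9.61 FPKM against 7.62 and 5.59 FPKM, *Cd3e* 3.76 and 3.05 against 2.47 and 2.36, *Cd3d* 1.45 and 1.46 against 1.57 and 1.47, and *Cd4* 0.673 and 0.363 against 0.545 and 0.341.

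Skeletal muscle markers (9 tested) had a median of 0.09, with 1 higher (*Myh4*) and 1 lower (*Myh1*), both named after their values were seen. *Myh4* had 124.9 and 62.9 FPKM against 426.9 and 329.4 FPKM, and *Myh1* 695 and 753.4 against 322.2 and 567.6. *Acta1* had 2848 and 3133 FPKM against 2106 and 2583 FPKM, *Tnnt3* 1762 and 1530 against 1314 and 1583, *Mylpf* 845 and 782 against 746 and 894, and *Ckm* 800 and 723 against 825 and 915. Adipocyte markers (7 tested) had a median of 0.23, with 2 higher (*Lep* and *Plin1*, named after their values were seen) and 0 lower. *Lep* had 1.635 and 1.158 FPKM against 9.746 and 3.705 FPKM, and *Plin1* 17.43 and 19.55 against 26.05 and 22.74. *Fabp4* had 831 and 1200 FPKM against 1158 and 762.5 FPKM, *Cfd* 603 and 992 against 931 and 839, *Retn* 78.9 and 118 against 116 and 111, and *Cidec* 55.8 and 97.6 against 102 and 83.8. Red blood cell markers (5 tested) had a median of -0.06, with 0 higher and 0 lower. This median ran from -0.22 to -0.0004 with each library left out. *Hba-a1* had 18.2 and 6.60 FPKM against 6.46 and 25.3 FPKM, *Hbb-bs* 8.32 FPKM in Cont-IMQ 1 and at most 0.0044 FPKM in the others, and *Alas2* 0.488 and 0.152 against 0.246 and 0.305.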
